A study of Mus musculus with 4 samples.

Results

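Splenic CD4+ T cells of MRL/lpr mice, a lupus-prone strain, and of C57BL/6J (B6) mice were profiled by small RNA and mRNA sequencing, and the miRNAs described here are miR-21a, miR-155, miR-146a and miR-146b. The MRL/lpr mice carry the lpr mutation of Fas (Tnfrsf6) on the MRL background, whereas the B6 mice carry wild-type Fas on another background, so that the strain, the mutation and the disease cannot be told apart. Mice of both strains were females of 16 weeks, and the labels give no treatment. The CD4+ cells were left behind after beads had bound the other spleen cells, and 1 library per strain and assay was made. The sample labels name 1 mouse per strain, while the text of the series mentions 2 B6 mice. Members were taken by name, as all rows of the deposited miRNA lists from these 4 hairpins, which gave 5 mature miRNAs of the 114 listed. Their partners were the mRNAs of the deposited list of lower mRNAs that carry the name of a member, which gave 16 of 212 genes (7.55%). Because no group has a second library, no test was possible. The intervals, exact Clopper-Pearson ones at 95% unless another kind is named, cover counting error only and not differences between mice. They treat reads as independent, and since sequenced reads are not independent molecules, they may be too narrow even for counting error.

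A miRNA is cut from a hairpin precursor whose 5p and 3p arms form a duplex, and usually a single arm is kept by an Argonaute protein while the other is degraded. The kept strand pairs with messages mainly through its seed, bases 2 to 8, and lowers their stability or translation. In lymphocytes miR-21 and miR-155 are induced by antigen receptor and inflammatory signals. MiR-155 restrains inhibitors of signalling such as Socs1 and Inpp5d, and miR-21 restrains the tumour suppressor Pdcd4. MiR-146a is induced by NF-kB and restrains its upstream adaptors Traf6 and Irak1, which makes it a brake on the same pathway.

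The mature sequences are shown because they set which members share a seed, and all 5 RefSeq sequences were identical to those deposited, which have T for U. Each is written 5′ to 3′ with the seed in capitals.
miR-21a-5p: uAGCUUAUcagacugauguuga
miR-21a-3p: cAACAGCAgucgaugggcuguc
miR-155-5p: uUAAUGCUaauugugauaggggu
miR-146a-5p: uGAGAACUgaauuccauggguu
miR-146b-5p: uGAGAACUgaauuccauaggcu

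In the GRCm38.p6 annotation the genes lie on 3 chromosomes. Mature miR-21a-5p occupies chr11:86584120-86584141 and miR-21a-3p chr11:86584082-86584103, both on the minus strand in Mir21a. MiR-146a-5p occupies chr11:43374435-43374456 on the minus strand, in the gene that RefSeq calls Mir146. MiR-155-5p occupies chr16:84714143-84714165 and miR-146b-5p chr19:46342790-46342811, both on the plus strand, in Mir155 and Mir146b. The 2 miR-146 miRNAs have the same seed and are identical at 20 of 22 bases. Counted from the 5′ end, with miR-146a-5p first, they differ by G18A and U21C. No other listed miRNA has the seed of any of the 5, so the members form 4 seed groups.

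All 5 mature miRNAs had more reads per 1000000 trimmed reads (RPM) in the MRL/lpr library. MiR-21a-5p had 340603 reads (10127 RPM) in the B6 library and 1261746 reads (42099 RPM) in the MRL/lpr library. MiR-146a-5p had 184503 reads (5486 RPM) and 415013 reads (13847 RPM). MiR-155-5p had 5084 reads (151 RPM) and 11305 reads (377 RPM). These are the 3 strands by which the hairpins are best known, and their order of reads was the same in both libraries. MiR-146b-5p was scarcer, with 856 reads (25.5 RPM) in the B6 library against 4327 reads (144.4 RPM) in the other. MiR-21a-3p, the strand opposite miR-21a-5p, was the scarcest with 165 reads (4.91 RPM) and 2316 reads (77.3 RPM). By the ratio of RPM, the scarcest of the 5 differed most, and by the difference in RPM the most abundant did. A higher level can come from more RNA per cell or from a different mix of cells, and in bulk samples these cannot be told apart.

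**Figure D1:**
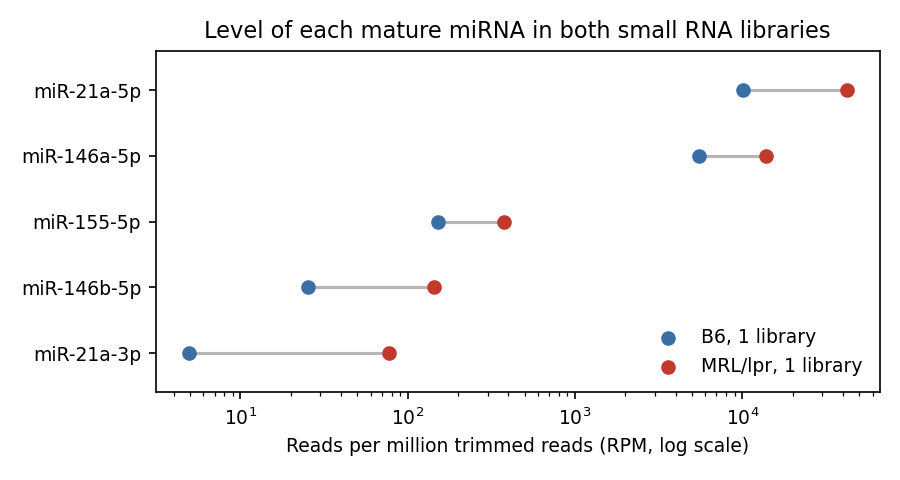
Level of each mature miRNA in RPM (log scale) in the B6 library (blue) and the MRL/lpr library (red), with 1 library per strain and no replicate error. Every red point lies to the right of its blue point, and the gap is widest for miR-21a-3p, at 4.91 and 77.3 RPM.

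The deposited lists hold only miRNAs that differed at least 2-fold and had at least 100 reads over both libraries, so a member could be listed only if it differed. Of the 114 listed miRNAs, 69 were at least 2-fold higher in MRL/lpr (60.5%), and the 5 members were among them. At least 4-fold higher were 3 of the 5, namely miR-21a-3p, miR-146b-5p and miR-21a-5p, beside 36.8% of all listed miRNAs. MiR-155-3p, miR-146a-3p and miR-146b-3p are annotated in RefSeq but were not in either list, and they are not read as unchanged.

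**Figure D2:**
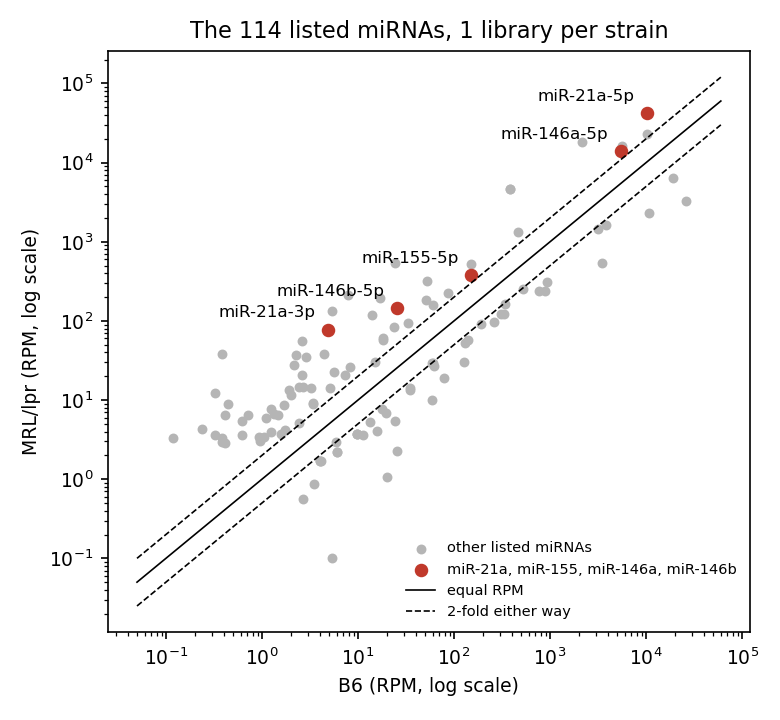
RPM in MRL/lpr against RPM in B6 (both log scale) for the 114 listed miRNAs, with the 5 members in red, the line of equal RPM and dashed lines at 2-fold either way. The band between the dashed lines is empty because the lists hold no miRNA there, and miR-21a-5p is the highest point on the MRL/lpr axis at 42099 RPM.

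MiR-21a-5p became the most abundant of the listed miRNAs. By RPM it ranked 5 of 114 in B6 and 1 of 114 in MRL/lpr. It took 5.60% of all miRNA reads in B6 (95% interval 5.58 to 5.61) and 19.3% in MRL/lpr (95% interval 19.3 to 19.4). Its fold was 4.16 (95% interval 4.14 to 4.17). Together the 5 members had a share of miRNA reads of 8.73% in B6, which compares with 26.0% in MRL/lpr, and miR-21a-5p accounted for most of both shares. The miRNA totals are those of the authors, 6086796 for B6 and 6520734 for MRL/lpr.

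The hairpin of miR-21a was the one member hairpin with both arms listed, and its minor arm differed more than its major arm. The RefSeq hairpin of 92 bases is shown with the arms in capitals, to place the 5p arm at bases 18 to 39 and the 3p arm at bases 56 to 77.
Mir21a hairpin: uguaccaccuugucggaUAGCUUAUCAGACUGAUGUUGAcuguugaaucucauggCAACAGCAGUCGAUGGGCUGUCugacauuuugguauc

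The 3p arm had a fold of 15.8 (95% interval 13.4 to 18.6), against 4.16 for the 5p arm. Its fold rests on 165 reads in B6 and was 5.86 with 10 RPM added to both libraries and 1.69 with 100 RPM added, when that of the 5p arm was 4.13. It remained the minor arm in both libraries. Of the reads of both arms, the 3p arm made up 0.0484% in B6 (95% interval 0.0413 to 0.0564) and 0.183% in MRL/lpr (95% interval 0.176 to 0.191). In other words, B6 had 2064 reads of the 5p arm per read of the 3p arm, and MRL/lpr had 545. The ratio of the 3p to the 5p arm was 3.79 times higher in MRL/lpr (95% Woolf interval 3.24 to 4.44, counting error only). Because both arms were read in the same library, this ratio does not depend on the scaling between libraries. Among the 15 hairpins with both arms listed, the change in arm ratio of miR-21a was the second in size in either direction, after that of miR-144, an erythroid miRNA, at 4.54 (95% Woolf interval 2.52 to 8.17). The interval of miR-144 is wide and includes the value of miR-21a. For miR-24 and miR-181a the arms were matched by name, although only the minor arm, miR-24-2-5p or miR-181a-1-3p, names a single locus. Their arm ratios may therefore mix loci. In 10 of the 15 both arms were higher in MRL/lpr. In 7 of these 10, miR-21a included, the minor arm differed more than the major arm. For miR-221, miR-22 and miR-210, which are among the 7, the counting interval of the change included 1. Over all 15, the ratio of the minor to the major arm was higher in MRL/lpr in 11. Listing required 100 reads over both libraries, which a scarce arm could reach through its MRL/lpr reads. MiR-434-5p did so (B6 8 reads, MRL/lpr 128 reads). These counts therefore cannot show whether minor arms gain in general.

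**Figure D3:**
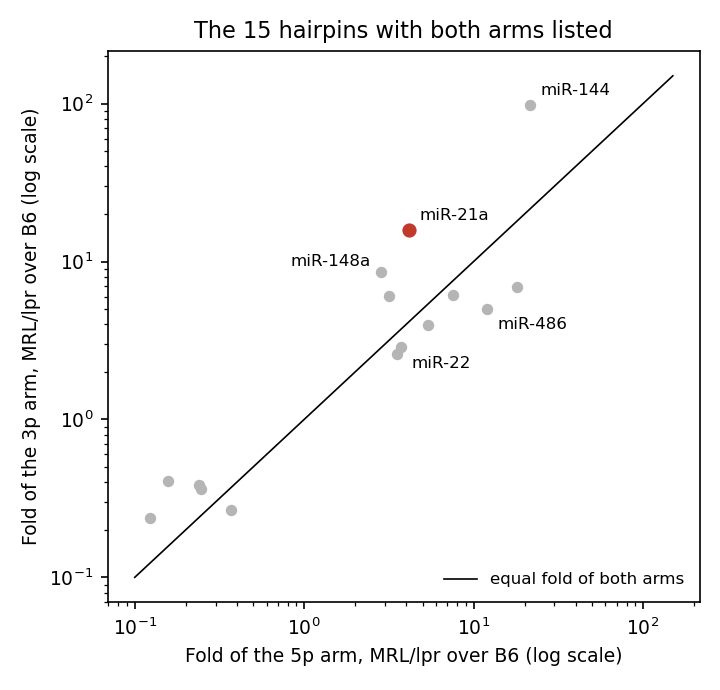
Fold of the 3p arm against fold of the 5p arm, MRL/lpr over B6 (both log scale), for the 15 hairpins with both arms listed, with the line of equal fold. MiR-21a (red) lies above the line at 4.16 for the 5p and 15.8 for the 3p arm, and miR-148a and miR-486 lie on opposite sides of it.

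The miR-146 miRNAs, which share a seed but come from different genes, differed unequally. MiR-146a-5p was 2.52-fold higher (95% interval 2.51 to 2.54) and miR-146b-5p was 5.67-fold higher (95% interval 5.27 to 6.11). With 100 RPM added to both libraries, the order turned, with 2.50 for miR-146a-5p and 1.95 for miR-146b-5p. That amount is small beside the B6 level of miR-146a-5p (5486 RPM) but exceeds that of miR-146b-5p (25.5 RPM). The turn thus follows from the addition and is no check on the unequal folds. MiR-146a-5p supplied nearly all reads with this seed. B6 had 216 reads of miR-146a-5p per read of miR-146b-5p (95% interval 202 to 231), and MRL/lpr had 95.9 (95% interval 93.1 to 98.9). Summed, they reached 5511 RPM in B6 against 13992 RPM in MRL/lpr, which is 2.54-fold, so the larger fold of miR-146b-5p hardly moved the total for the seed. By RPM, miR-146a-5p ranked 7 in B6 and 5 in MRL/lpr, and miR-146b-5p ranked 42 and 29. How reads with mismatches were assigned between these near-identical miRNAs is not given in the sources used here, and the part of misassigned miR-146a reads in the count of miR-146b-5p was not tested.

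MiR-155-5p was 2.50-fold higher in MRL/lpr (95% interval 2.41 to 2.58). Its interval overlaps that of miR-146a-5p, so the folds of these could not be separated at this depth. The ratio of miR-146a-5p to miR-155-5p was 36.3 in B6 (95% interval 35.3 to 37.3) and 36.7 in MRL/lpr (95% interval 36.0 to 37.4). Both miRNAs thus stood in nearly the same proportion in the libraries. MiR-155-5p ranked 24 by RPM in B6 and 17 in MRL/lpr. Among the 69 higher miRNAs ordered by fold, it ranked 64 and miR-146a-5p ranked 63, near the lower end of the list. MiR-21a-5p ranked 42, miR-146b-5p ranked 35 and miR-21a-3p ranked 12.

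Whether miR-146a-5p and miR-155-5p passed 2-fold depended on the denominator chosen. With the miRNA total of each library as the denominator, instead of its trimmed reads, their folds were 2.10 and 2.08. With only listed miRNAs outside the erythroid group as the denominator, they were 1.97 (95% interval 1.96 to 1.98) and 1.95 (95% interval 1.89 to 2.02). The folds of the other 3 members remained above 3 under both scalings, with 3.46 and 3.25 for miR-21a-5p. These scalings lower every fold by the same factor, 1.20 and 1.28. Both denominators include the members, whose share of miRNA reads was 8.73% in B6 and 26.0% in MRL/lpr. Their own difference thus lowers these folds. The second denominator also holds only miRNAs listed for differing at least 2-fold. Folds with the members left out of the denominator were not computed.

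**Figure D4:**
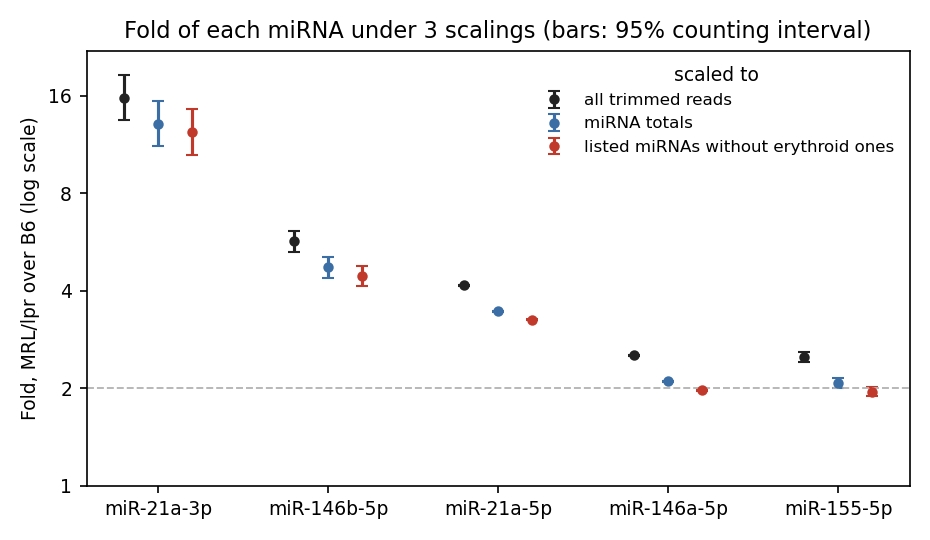
Fold of each member, MRL/lpr over B6 (log scale), when reads are divided by all trimmed reads (black), the miRNA totals (blue) or the listed miRNAs without the erythroid ones (red), with bars for the 95% counting interval and a dashed line at 2-fold. MiR-146a-5p and miR-155-5p stand at 2.52 and 2.50 in black and at 1.97 and 1.95 in red, just under the line.

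RNAs that are known as markers of other cells also differed between the libraries. MiR-223-3p, which is abundant in myeloid cells, went from 7.94 RPM in the B6 library to 215 RPM in the other. The paper treats it as a miRNA of CD4+ T cells. By quantitative PCR it reports a higher level in MRL/lpr mice, and in B6 mice with the lpr mutation, than in B6 mice. Of 16 marker genes of myeloid cells and neutrophils, 3 were in the mRNA tables and all 3 were higher, beside 67.5% higher among the 652 mRNAs of both tables. Itgam was at 1.71 and 28.1 FPKM, Cd68 at 7.28 and 28.7 FPKM and Cd177 at 0.449 and 48.4 FPKM. Their summed level came to 9.44 FPKM for B6 against 105 FPKM for MRL/lpr, and the other 13 were in neither table. FPKM, fragments scaled to transcript length and library depth, is the unit that the table's column names imply. Myeloid cells also make miR-21a, miR-155 and miR-146a, and their part in these differences was not tested. Of 11 markers of CD4+ T cells and 9 of B and plasma cells none was in the tables, which hold predicted targets only, so the cell type could not be checked against them. Of 10 erythroid genes only Tfrc, a transferrin receptor that dividing cells also use, was listed, at 15.9 and 37.9 FPKM. The erythroid miRNAs in the lists were all higher in MRL/lpr, among them miR-144-3p at 0.387 and 37.7 RPM, miR-451a at 0.327 and 12.4 RPM and miR-486-5p at 384 and 4630 RPM, and their part in the results was not tested. Of the miRNAs taken as markers of stromal and endothelial cells, miR-143-3p was higher, at 5.32 and 132 RPM. MiR-10b-5p, from the same set, was lower, at 17.7 and 7.64 RPM. No values are given here for the others of the set, miR-145a and miR-126a. The part of such cells was not tested either.

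The most abundant member had no paired mRNA. In the deposited list of lower mRNAs, 10 genes carried the names of miR-146a-5p and miR-146b-5p, always together, and 6 other genes carried miR-155-5p. None carried miR-21a-5p or miR-21a-3p, although miR-21a-5p had the most reads of all listed miRNAs in MRL/lpr. Of the 69 higher miRNAs, 18 had no partner. With 10 genes each, the miR-146 miRNAs were exceeded by 7 of the other miRNAs, of which the largest number was 14. No gene was paired with both miR-155-5p and a miR-146 miRNA. The list holds only mRNAs that were at least 2-fold lower in MRL/lpr and predicted as targets of a higher miRNA, so the direction of the partners was fixed by the table. At least 4-fold lower were 4 of the 16 partners, beside 29.2% of all 212 lower mRNAs. The median log2 fold of the partners was -1.62, and that of all lower mRNAs was -1.56. With 1 FPKM added to both libraries these medians were -0.95 and -0.85, and 7 of the 16 partners were still at least 2-fold lower.

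The partners of miR-146 ranged from abundant to barely detected messages. Usp3, a ubiquitin protease that acts on histones, was the most abundant, with 39.0 FPKM in the B6 library and 18.9 in that of MRL/lpr (log2 fold -1.05). Nr4a3, an orphan nuclear receptor that T cell receptor signals switch on rapidly, had 22.5 and 6.39 FPKM (log2 fold -1.82). Mri1, an enzyme of methionine salvage, had 8.96 and 4.23 FPKM, and Arl5b, a small GTPase of the ARF-like family, had 7.96 and 3.57 FPKM. These 4 were the miR-146 partners with more than 3 FPKM in MRL/lpr. Atp8a2, a phospholipid flippase, had the largest difference of the group, from 3.42 FPKM in B6 to 0.408 FPKM in MRL/lpr (log2 fold -3.07). It also carries miR-152-3p and the 3p arms of miR-148a and miR-148b. The other 5 stayed below 1 FPKM in either strain, so that few fragments stand behind each value. They were Trim2, a ubiquitin ligase, at 0.707 and 0.222 FPKM, Napb, a factor of vesicle fusion, at 0.538 and 0.195, Rarb, a retinoic acid receptor, at 0.427 and 0.144, the ephrin ligand Efna2 at 0.165 and 0.0642, and the sugar transporter Slc5a10 at 0.155 and 0.0607. The median log2 fold of the 10 was -1.42, and 1 of them, Atp8a2, was at least 4-fold lower. For all 212 lower mRNAs the median was -1.56, and 29.2% were at least 4-fold lower. Restricted to the 5 genes paired with miR-146 alone (Usp3, Mri1, Arl5b, Trim2 and Slc5a10), the median was -1.16.

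The partners of miR-155-5p had a median log2 fold of -2.01, beside -1.56 for all 212 lower mRNAs. At least 4-fold lower were 3 of the 6 (Sytl2, Acta1 and Actl7a), beside 29.2% of all lower mRNAs. Of these, Acta1 and Actl7a were under 1 FPKM in both libraries. Tle4, a co-repressor of the Groucho family that works with TCF and RUNX factors, had 22.7 FPKM in the B6 library and 10.3 in the other (log2 fold -1.13). Sytl2, which binds Rab27 in vesicle transport, had 14.5 and 3.46 FPKM (log2 fold -2.06). Ttc28, a protein with tetratricopeptide repeats, had 6.14 and 1.58 FPKM (log2 fold -1.96). Ghrl, which encodes ghrelin, had 2.85 and 0.785 FPKM (log2 fold -1.86). In these 4 the level in MRL/lpr was between 23.9% and 45.6% of that in B6. The actin genes Acta1, of skeletal muscle, and Actl7a, of testis, had 0.212 and 0.0504 FPKM and 0.201 and 0.0238 FPKM. Actl7a had the largest fold of the 16 partners (log2 fold -3.07), from levels at which few fragments are counted. Of the 6 genes, 5 carry no other miRNA than miR-155-5p, the exception being Acta1, which is also paired with miR-676-3p. Whether miR-155 and miR-146 partners differ from each other was not tested, since genes of the same library pair are not replicates.

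**Figure D5:**
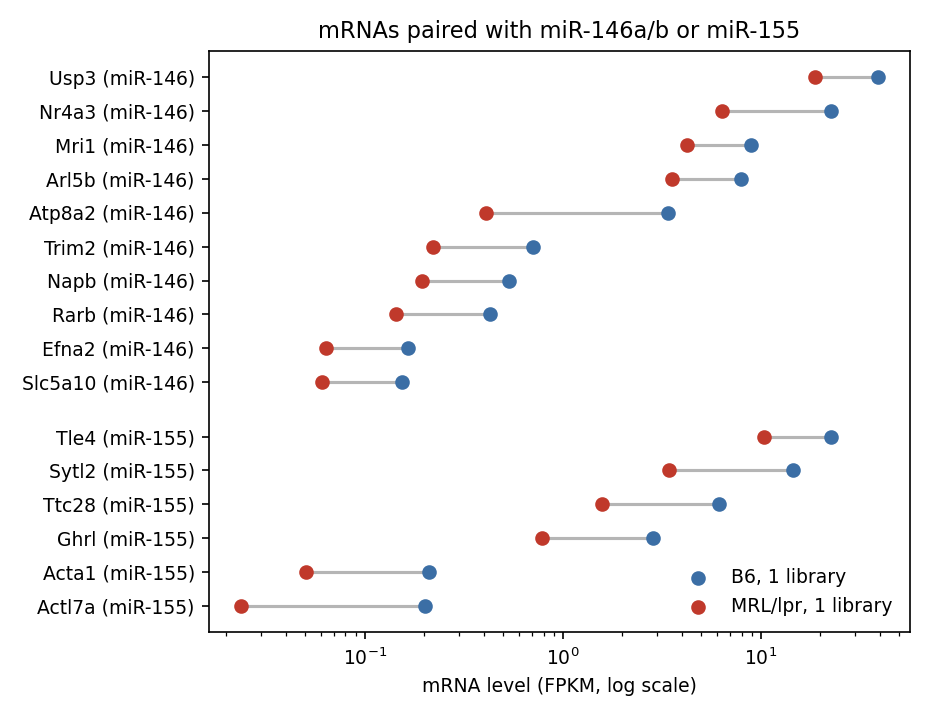
mRNA level in FPKM (log scale) of the 10 genes paired with miR-146a-5p and miR-146b-5p (top) and the 6 paired with miR-155-5p (bottom) in the B6 library (blue) and the MRL/lpr library (red), with 1 library per strain. Every red point is to the left of its blue point because the table holds only lower mRNAs. Under 1 FPKM in both libraries are 7 of the 16 genes, beside 43.4% of all lower mRNAs.

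Most genes known as targets of these miRNAs were in neither mRNA table. Of 66 such genes in 3 lists, 1 was higher, 3 were lower and 62 were not listed, beside the same 67.5%. Of the 24 genes of the miR-21 list, Rasgrp1, which activates Ras below the T cell receptor, was at 70.3 FPKM in the B6 library and 19.2 in the other. It is paired in the table with miR-144-3p alone. Spry1, an inhibitor of receptor signalling, was higher at 7.84 and 24.8 FPKM. Of the 26 genes of the miR-155 list, S1pr1, the receptor that guides T cells out of lymphoid organs and that earlier work on lupus-prone mice names as a target of miR-155, had 138 and 33.0 FPKM (log2 fold -2.06). The deposited table pairs it with 6 miRNAs, miR-223-3p included, and miR-155-5p is not among them. Of the 16 genes of the miR-146 list, Rarb was the one listed and the one paired with a member. Socs1, Inpp5d, Pdcd4, Traf6 and Irak1 were in neither table, which does not show that they were unchanged.

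Of 57 genes of NF-kB and Toll-like receptor signalling, 4 were higher in MRL/lpr, none was lower and 53 were in neither table. Tnf, an inflammatory cytokine driven by NF-kB, was at 16.6 FPKM in the B6 library and 68.4 in the other. Nod2, a sensor of bacterial peptidoglycan, had 0.791 and 2.31 FPKM. Tlr7, a sensor of single-stranded RNA, had 1.17 and 2.39 FPKM, and Tlr5, a sensor of flagellin, had 0.0675 and 0.216 FPKM. These 4 genes stand in the table of higher mRNAs, beside the 67.5% given above, and are paired there with miRNAs that were lower in MRL/lpr.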

How the data were processed

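RNA of splenic CD4+ T cells was sequenced as 1 library per strain and assay. The deposited miRNA lists give read counts per mature miRNA together with RPM, and the authors' RPM equals the count over the trimmed reads of the library (33634335 for B6, 29971024 for MRL/lpr), so 1 read is worth 0.0297 and 0.0334 RPM. For mRNAs, the authors deposited values without a named unit, taken here as FPKM from the Cuffdiff column names, and their depth is unknown. The authors' folds, p-values and q-values were not used. The aligner, genome build and miRBase release were not given in the sources used here. The source of the predicted pairs in the deposited tables is not stated in them. The paper names miRDB as its source of targets, and whether the tables use it was not settled.

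Python 3.11.15 with SciPy 1.17.1 and NumPy 2.4.6 gave the folds, intervals and medians, and Matplotlib 3.10.9 the plots. The interval of a fold comes from the exact interval of the MRL/lpr share of its reads. It was run on simulated counts drawn independently, as the interval itself assumes. This could not test how the interval behaves for reads that are not independent. Members, gene lists and alternatives were chosen with earlier results of these data known. Named are all members, the partners highest, lowest and most changed by a set rule, and listed genes of the lists. Acta1 and Napb fall outside this rule and complete the 16 partners. Sequences are from RefSeq (GRCm38.p6). Alternatives were other scalings, added RPM, FPKM or reads, minimum levels and a 4-fold threshold. The quantitative PCR, reporter, patient and knockout data were not analysed here.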

Additional observations from a re-analysis of the deposited data

How the results depend on the processing

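Each value rests on 1 library per strain, counting intervals do not cover differences between mice, and depth limits miR-21a-3p (165 reads in B6) and the mRNAs under 1 FPKM most. No paired analysis was possible because the strains were each sequenced from a single library per assay. An equal amount added to both libraries shrinks folds of scarce RNAs by construction and cannot turn them.

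Scaled to the miRNA totals, the folds were 13.1 for miR-21a-3p, 4.72 for miR-146b-5p, 3.46 for miR-21a-5p, 2.10 for miR-146a-5p and 2.08 for miR-155-5p. With the listed non-erythroid miRNAs as the denominator, they were 12.3, 4.44, 3.25, 1.97 and 1.95, which left 3 of the 5 members at 2-fold or more. Both denominators include the reads of the members themselves. A threshold of 4-fold also left 3. With 1 RPM added, miR-21a-3p was at 13.3. With 10 RPM added, miR-21a-3p was at 5.86, miR-146b-5p at 4.35 and miR-155-5p at 2.40. With 100 RPM added, the folds were 1.69 for miR-21a-3p, 1.95 for miR-146b-5p, 4.13 for miR-21a-5p, 2.50 for miR-146a-5p and 1.90 for miR-155-5p. The 3p share of miR-21a was 0.0514% in B6 and 0.184% in MRL/lpr with 10 reads added to each arm, within the counting intervals.

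Of the 16 partners, 10 were paired with members alone. At least 1 FPKM in B6 was reached by 9, beside 56.6% of all lower mRNAs. At least 4-fold lower were 4, beside 29.2% of all lower mRNAs, and 7 remained at least 2-fold lower with 1 FPKM added. With 0.1 FPKM added, the median log2 fold was -1.13 for all partners, -1.11 for those of miR-146, -1.51 for those of miR-155 and -1.23 for all lower mRNAs. With 1 FPKM added, these medians were -0.95, -0.71, -1.09 and -0.85. At 1 FPKM or more in B6 they were -1.82, -1.16, -1.91 and -1.55. Among genes paired with members alone, they were -1.51 for all partners, -1.16 for miR-146 and -1.96 for miR-155.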

Other observations

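The arms of other hairpins did not all move as those of miR-21a. In miR-148a the minor 5p arm made up 1.52% in B6 against 0.512% in MRL/lpr, and in miR-486 the minor 3p arm made up 0.440% and 0.184%, so that the minor arm lost ground in both. In miR-22, whose minor arm was scarcer still, it made up 0.0164% (95% interval 0.0111 to 0.0233) in B6 and 0.0213% (95% interval 0.0174 to 0.0258) in MRL/lpr, which could not be separated at this depth. Over the 14 other hairpins, the change in the ratio of the minor to the major arm ran from 0.334 to 4.54, and for 4 of them the counting interval included 1.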
